A study of Mus musculus with 30 samples.

Results

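The livers described here came from male C57Bl/6NCr mice born to normally nourished dams (NN), treated or not with tauroursodeoxycholic acid (TUDCA), a taurine-conjugated bile acid. They were chosen by their group label alone and make up 8 of the 30 arrays of the series, 1 array per animal. The NN-TU group (4 arrays, replicates 19 to 22) and the NN-Veh group (4 arrays, replicates 15 to 18) were both 22 weeks old and had been on a high-fat diet (HFD) since week 9, that is for 13 weeks. NN-TU mice received TUDCA by gavage at 0.5 g/kg/day from week 17, that is for the last 5 weeks, and NN-Veh mice received vehicle. The offspring of undernourished dams (UN-TU and UN-Veh, 4 arrays each, dams on 40% fewer calories in late pregnancy) had the same age, diet and treatment and enter here for the estimate of the spread and for 1 comparison of the TUDCA effect. All pups were nursed by normally nourished dams. The labels do not say which animals were littermates or at what hour the livers were taken. The p-values set each difference against the spread between these animals. They take the animals as independent, which could not be checked.

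Bile acids are made from cholesterol in the hepatocyte, and the rate-limiting step of the classic route is catalysed by Cyp7a1. Bile acids returning from the gut act on the nuclear receptor FXR (Nr1h4) in liver and ileum, which lowers Cyp7a1 transcription. Cholesterol synthesis is driven by the transcription factor SREBP-2 (Srebf2), which leaves the endoplasmic reticulum (ER) when sterols are scarce there, and its relative SREBP-1c (Srebf1) drives fatty acid synthesis. TUDCA is a hydrophilic bile acid known as a chemical chaperone that relieves ER stress. The comparison of NN-TU with NN-Veh asks which liver transcripts differ with TUDCA in mice without undernutrition before birth.

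The deposited values were log2 signals per probe set, and differences are given as log2 fold changes, NN-TU minus NN-Veh, with their standard error (SE) from limma over the 16 arrays of 22 weeks. A gene is said to rise or fall where p, adjusted by Benjamini-Hochberg over the 25341 probe sets named by a gene, was under 0.05. Array medians lay between 4.11 and 4.22. NN-TU replicates 21 and 22 stood apart from the other 14 arrays. On the first principal component (18.3% of the variance) they lay at 27.2 and 32.7, against -15.4 to 9.88 for the others, and their SD over probe sets was 1.92 and 1.91, against 1.96 to 2.01. Among the probe sets in the top quartile of signal their median difference from the NN-Veh mean was -0.16 and -0.25, against 0.02 and 0.05 in NN-TU replicates 19 and 20. Results are therefore given with all 4 NN-TU arrays and, where it matters, with replicates 19 and 20 alone, a fit added after the data had been seen. The 9 hepatocyte markers measured were all above the array median, and their summed linear signal was 29330 to 37610 in NN-TU and 33370 to 37150 in NN-Veh, with replicates 21 and 22 lowest (29330 and 30120).

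**Figure D1:**
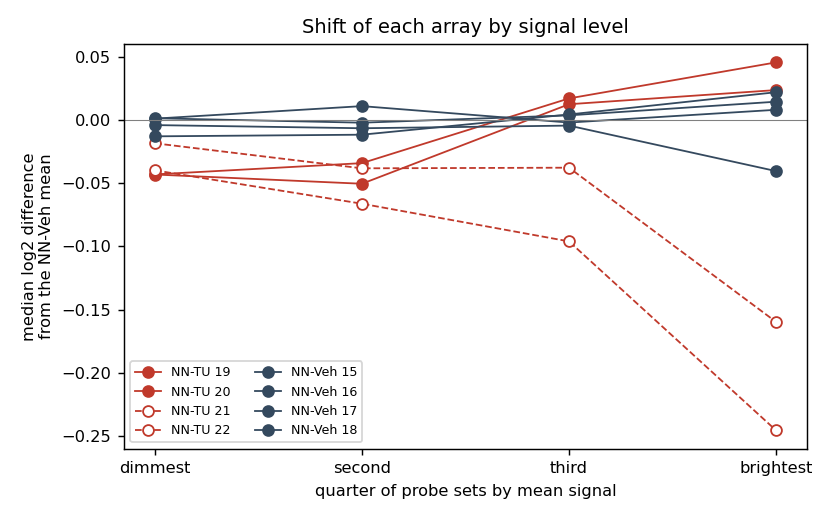
Median log2 difference of each NN array from the mean of the 4 NN-Veh arrays (y axis), by quartile of the probe sets ranked on their mean signal (x axis), with NN-TU in red and NN-Veh in dark blue. The open circles, NN-TU replicates 21 and 22, reach -0.16 and -0.25 in the top quartile of signal, where the other 6 arrays lie between -0.04 and 0.05.

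With TUDCA, 74 probe sets rose and 268 fell in NN livers, 0.292% and 1.06% of those tested (limma, adjusted p under 0.05). With 1 probe set per gene these were 59 genes higher and 235 lower of 22180, and the median log2 fold change of all genes was -0.05. Of these 22180 genes 62.7% had a negative difference, and 11.5% were lower and 3.84% higher at an unadjusted p under 0.05 (5.11% and 5.76% without NN-TU 21 and 22). Of the 74 and 268, 10 and 17 had changed at least 2-fold. At a linear fold of 2, the study's cut-off, and an unadjusted limma p under 0.05, 22 probe sets were higher and 24 lower (0.0868% and 0.0947%). The study set an analysis of variance beside that fold, and with its p in place of limma's there were 13 higher and 20 lower. The balance of directions moved with the scaling, since 21.6% of the calls were rises as deposited, 39.5% (141 against 216 falls) after repeated quantile normalization and 36.9% (111 against 190) with a common median. Of the 268 falls, 162 were in the top quartile of signal.

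Without NN-TU replicates 21 and 22, 13 probe sets rose and 12 fell (0.0513% and 0.0474%), of which 9 and 12 were among the 74 and 268. All 74 rises and all 268 falls kept their sign in that fit, with medians of 0.61 and -0.41, against 0.57 and -0.53 with all 4 arrays. These probe sets were chosen with all 4 arrays, and the refit reuses replicates 19 and 20 and the same vehicle arrays. Kept signs were therefore nearly fixed by that choice and are not independent evidence. All signs were also kept without replicates 19 and 20. Without replicates 19 and 20 in their place, 267 rose and 1760 fell. Leaving out 1 array at a time, the 342 calls became 129 and 149 without NN-TU 21 or 22, 713 and 545 without NN-TU 19 or 20, and 165, 205, 195 and 173 without NN-Veh 15, 16, 17 or 18. A fit of all 30 arrays gave 4 rises and 7 falls. Cyp7a1, Sqle, Mvk and Sdr9c7 were past the threshold in each of these fits, but not in the analysis of variance named by the study's methods once its p was adjusted (0.161, 0.148, 0.161 and 0.229). That test called 1 probe set after adjustment, and 814 higher and 2265 lower at an unadjusted p under 0.05.

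The largest change among the named genes was the fall of Cyp7a1 (chr4:6265612-6275632, GRCm38.p6). Its log2 signals were 5.08, 5.51, 6.70 and 6.95 in NN-TU and 9.60, 9.69, 9.93 and 9.07 in NN-Veh. Every treated liver lay below every vehicle liver, and the lowest values were those of replicates 19 and 20. The difference was -3.51 (SE 0.33), an 11.4-fold lower signal, with an adjusted p of 2.44e-05 in limma, and -4.28 without replicates 21 and 22 (adjusted p = 2.68e-06). No other of the 17 bile acid synthesis genes measured passed the test, and the median of the list was -0.18. Cyp8b1, the sterol 12-alpha-hydroxylase needed for cholic acid, had 9.19, 9.42, 9.28 and 8.82 in NN-TU and 9.10, 9.20, 9.68 and 9.45 in NN-Veh, overlapping groups with a difference of -0.18 (adjusted p = 0.642, limma). Cyp27a1, which opens the alternative route, differed by -0.01 (adjusted p = 0.985), with signals of 9.13 to 9.74 in NN-TU and 9.29 to 9.57 in NN-Veh. Cyp7b1, the oxysterol hydroxylase of that route, averaged 9.07 ± 0.56 in NN-TU and 8.47 ± 0.04 in NN-Veh (SD, n = 4 each), a difference of 0.60 (adjusted p = 0.119 in limma). Cyp2c70, the mouse enzyme of muricholic acid synthesis, had 9.48, 10.12, 9.88 and 9.88 in NN-TU and 10.76, 10.56, 10.51 and 10.12 in NN-Veh. Its difference of -0.65 (SE 0.16) was just short of the threshold (adjusted p = 0.0509). The 9 genes of side chain cleavage, conjugation and muricholate formation all had negative differences (62.7% of all genes did) and 0 passed the threshold, with a median of -0.27 that was -0.08 without NN-TU 21 and 22.

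Among the carriers that move bile acids through the hepatocyte, 0 of 13 passed the adjusted threshold (limma). At an unadjusted p under 0.05, 2 were higher and 3 lower, against 3.84% and 11.5% of all genes. Slc10a1 (NTCP), the sodium-dependent importer, had 11.02, 11.24, 11.08 and 11.17 in NN-TU and 10.72, 10.71, 10.97 and 10.75 in NN-Veh, a difference of 0.34 (adjusted p = 0.0983) in groups that did not overlap. Slco1a1, an organic anion importer, had 8.82, 10.37, 9.74 and 9.52 in NN-TU and 9.00, 7.28, 8.50 and 7.39 in NN-Veh, with wide spread in both groups and a difference of 1.57 (SE 0.45, adjusted p = 0.0878, and 0.0439 without NN-TU 19). That was the 1 of 19 alternative fits past the threshold for Slco1a1. Its relative Slco1a4 had 7.49, 6.99, 7.49 and 6.68 in NN-TU and 7.63, 7.88, 7.93 and 7.95 in NN-Veh (-0.69, adjusted p = 0.055). The canalicular export pump Abcb11 (BSEP) differed by -0.40 (adjusted p = 0.0856), and by -0.15 without NN-TU 21 and 22. Slc10a2, the importer best known from ileum and bile ducts, was on no list and is named after its values were seen. It had 6.65, 5.88, 6.17 and 6.22 in NN-TU and 7.13, 6.91, 6.62 and 7.09 in NN-Veh and fell by 0.71 (SE 0.14, adjusted p = 0.016, limma), a call that was lost without NN-Veh 15 or 18 or NN-TU 21 or 22 (adjusted p up to 0.061).

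The receptors that sense bile acids were measured beside them, with 1 fall and 0 rises past the threshold among 13, against 1.06% of all genes falling. At an unadjusted p under 0.05, 2 were lower and 0 higher, against 11.5% and 3.84% of all genes. The FXR gene Nr1h4 averaged 8.85 ± 0.16 in NN-TU and 8.68 ± 0.13 in NN-Veh (SD, n = 4 each), a difference that did not pass in limma (adjusted p = 0.43). Nr0b2 (SHP), a hepatic FXR target and repressor of Cyp7a1, had 7.35, 7.61, 7.30 and 7.04 in NN-TU and 7.37, 7.33, 7.45 and 7.53 in NN-Veh, a difference of -0.10 with an SE of 0.22. Fgfr4 and Klb, the receptor pair for the ileal hormone FGF15, differed by -0.07 and -0.03. The pregnane X receptor gene Nr1i2, a receptor for bile acids and drugs, fell by 0.43 (SE 0.10, adjusted p = 0.0294), with 8.18, 8.0, 7.66 and 7.93 in NN-TU and 8.34, 8.41, 8.44 and 8.28 in NN-Veh. Its difference was -0.28 without NN-TU 21 and 22 (adjusted p = 0.26), and the call was lost without any 1 vehicle array, NN-TU 21 or NN-TU 22 (adjusted p up to 0.115).

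Transcripts of cholesterol synthesis rose together. Of the 21 genes of the list 17 were measured, and 12 rose and 0 fell, against 0.292% of all probe sets rising. The median difference was 0.84, and 0.91 without NN-TU 21 and 22, against -0.05 over all genes. Sqle (chr15:59315092-59331193), squalene epoxidase, a rate-limiting enzyme of the sterol part, had 8.24, 8.50, 8.34 and 7.88 in NN-TU and 5.59, 5.83, 6.56 and 6.20 in NN-Veh. The groups did not overlap, with a difference of 2.19 (SE 0.22, a 4.57-fold higher signal, adjusted p = 4.61e-05 in limma) and of 2.32 without NN-TU 21 and 22 (adjusted p = 0.00439). Cyp51 (chr5:4080674-4104697), which demethylates lanosterol, had 8.76, 9.06, 9.08 and 8.57 in NN-TU and 6.86, 7.15, 8.05 and 7.39 in NN-Veh, and rose by 1.5 (SE 0.22, adjusted p = 0.00229). Nsdhl (chrX:72918521-72958528), of the demethylation steps that follow, had 9.40, 9.76, 9.56 and 9.23 in NN-TU and 7.87, 8.02, 8.82 and 8.42 in NN-Veh, and rose by 1.20 (SE 0.20, adjusted p = 0.00412). In each of these genes NN-TU 22 was the lowest treated liver and NN-Veh 17 the highest vehicle liver.

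In the mevalonate part, Mvk (mevalonate kinase) had 6.86, 6.74, 6.54 and 6.54 in NN-TU and 5.78, 5.70, 5.98 and 5.53 in NN-Veh, groups that did not overlap. It rose by 0.93 (SE 0.12, adjusted p = 0.000793, limma), and by 1.05 without NN-TU 21 and 22 (adjusted p = 0.00837). Fdps (farnesyl diphosphate synthase) and Mvd (mevalonate decarboxylase) rose by 0.94 and 0.91 (adjusted p = 0.026 and 0.038). Hmgcs1, which makes the HMG-CoA that enters the pathway, had 10.65, 10.94, 10.78 and 10.37 in NN-TU and 9.55 to 10.43 in NN-Veh, where NN-Veh 17 lay above NN-TU 22. It rose by 0.79 (SE 0.20, adjusted p = 0.048). In the sterol part Fdft1 (squalene synthase), Hsd17b7, Lss (lanosterol synthase), Msmo1 and Tm7sf2 rose by 0.86, 0.88, 0.84, 0.83 and 0.53. Pmvk and Dhcr7 were at 0.49 and 0.39 (adjusted p = 0.155 and 0.244), and Ggps1, of the geranylgeranyl side branch, and Sc5d at 0.03 and 0.05. Ebp, the sterol isomerase, was the 1 gene with a negative difference, -0.31 (adjusted p = 0.153), which was -0.08 without NN-TU 21 and 22. Without these arrays Sqle and Mvk were the 2 genes past the adjusted threshold, while 14 genes of the list were higher at an unadjusted p under 0.05 in either fit. The 12 calls became 5 without NN-Veh 15, NN-Veh 16 or NN-TU 21, 6 without NN-Veh 18, and 2 in the fit of all 30 arrays. Sqle, Cyp51, Nsdhl, Mvk and Fdft1 were past the threshold whichever 1 of the 8 arrays was left out.

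**Figure D2:**
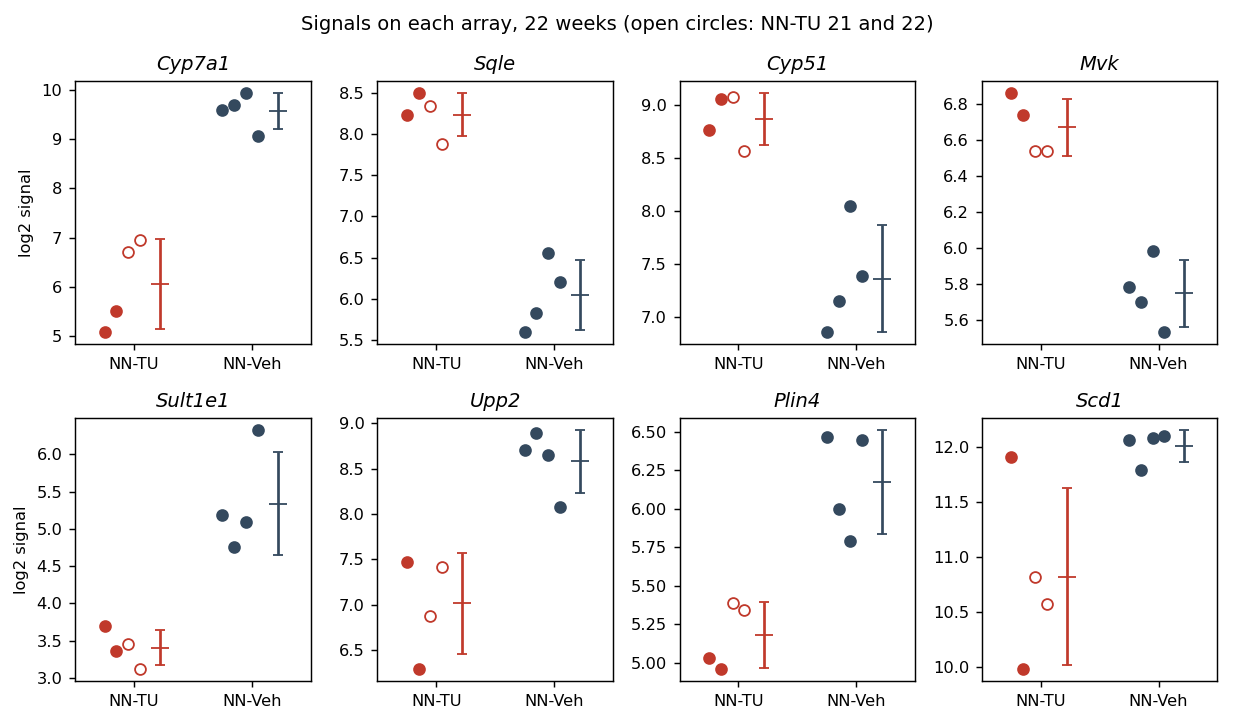
Log2 signal (y axis, its range set for each gene and not starting at 0) of 8 genes on each array, NN-TU in red and NN-Veh in dark blue, with the mean and SD beside the points (n = 4 each) and NN-TU replicates 21 and 22 as open circles. Cyp7a1 spans 5.08 to 6.95 in NN-TU and 9.07 to 9.93 in NN-Veh.

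SREBP-2 and partner factors act on the promoters of such genes, so the promoter letters of members that rose together are shown. The RefSeq promoter table (GRCm38.p6, 250 bases before to 50 after each start) held 9 of the 12 genes. Short motifs were searched on both strands. The letters CCAAT, bound by NF-Y, were found in 9 of the 9 (Hmgcs1, Mvk, Mvd, Lss, Cyp51, Tm7sf2, Msmo1, Nsdhl and Hsd17b7), and in 41.1% of the 27025 genes of the table (37.4% of 32851 windows). The letters CACCCCAC, as in sterol regulatory elements, were found in 1 of the 9 (Hmgcs1), against 3.3% of all genes (2.87% of windows), and CACGTG, an E-box, in 1 (Hsd17b7), against 8.09% (7.15% of windows). These matches are a description and were not tested. The last 160 bases before the start are given 5′ to 3′ on the strand of the gene for Hmgcs1 (chr13:119690191-119690350, plus strand), Cyp51 (chr5:4104698-4104857, minus strand) and Nsdhl (chrX:72918361-72918520, plus strand). Capitals mark CCAAT or its complement ATTGG, and CACCCCAC, which do not overlap one another.
Hmgcs1: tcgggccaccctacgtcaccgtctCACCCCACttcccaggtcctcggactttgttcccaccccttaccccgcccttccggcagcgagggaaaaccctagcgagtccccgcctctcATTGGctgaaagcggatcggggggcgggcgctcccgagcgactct
Cyp51: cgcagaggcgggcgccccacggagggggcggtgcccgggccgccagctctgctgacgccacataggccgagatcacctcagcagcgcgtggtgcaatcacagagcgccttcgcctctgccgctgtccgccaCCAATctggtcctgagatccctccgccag
Nsdhl: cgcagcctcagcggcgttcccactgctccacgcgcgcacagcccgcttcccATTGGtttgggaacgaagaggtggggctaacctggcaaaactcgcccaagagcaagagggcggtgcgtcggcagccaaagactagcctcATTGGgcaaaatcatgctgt
In Hmgcs1 the CACCCCAC begins at -136 and the ATTGG at -45 from the start, in Cyp51 the CCAAT at -29, and in Nsdhl the ATTGG at -109 and -20.

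Mvk shares its promoter region with Mmab, a cobalamin adenosyltransferase gene that starts on the opposite strand and is named after its values were seen. Mmab had 7.74, 7.57, 7.64 and 7.42 in NN-TU and 6.98, 6.95, 7.19 and 6.98 in NN-Veh, groups that did not overlap, and rose by 0.57 (SE 0.11, adjusted p = 0.0119, limma), or by 0.63 without NN-TU 21 and 22 (adjusted p = 0.0748). The 241 bases between both starts (chr5:114444028-114444268, on the plus strand, that of Mvk) are shown because both neighbours rose, and the capitals mark CCAAT and its complement ATTGG, found 5 times.
Mvk and Mmab: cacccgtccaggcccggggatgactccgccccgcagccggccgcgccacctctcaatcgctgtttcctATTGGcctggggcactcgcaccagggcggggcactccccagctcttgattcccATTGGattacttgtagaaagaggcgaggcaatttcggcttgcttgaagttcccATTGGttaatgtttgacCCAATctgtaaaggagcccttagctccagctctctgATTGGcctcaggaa

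The regulators of this pathway and of cholesterol uptake had 1 rise, 1 fall and a median of -0.03 over 13 genes, against 0.292% of all probe sets rising and 1.06% falling. At an unadjusted p under 0.05, 2 were higher and 2 lower, against 3.84% and 11.5% of all genes. Srebf2 itself had 7.27, 7.49, 7.40 and 6.99 in NN-TU and 6.84, 6.99, 7.03 and 6.88 in NN-Veh, a difference of 0.35 (SE 0.10, adjusted p = 0.0734 in limma, and 0.0182 without NN-TU 22). It was past the threshold in 5 of 19 alternative fits. Stard4, a cytosolic sterol carrier, had 7.42, 7.11, 7.32 and 7.40 in NN-TU and 6.57, 6.41, 6.99 and 6.59 in NN-Veh, and rose by 0.67 (SE 0.15, adjusted p = 0.0228), or 0.62 without NN-TU 21 and 22 (adjusted p = 0.216), and the call was also lost without NN-Veh 15, 16 or 18 or either of these 2 alone. Insig1 and Insig2, which hold SREBP in the ER, were at 0.00 and 0.00 with adjusted p of 0.994 and 0.996. The probe set for the microRNA gene Mir33, which lies within Srebf2 and is named after its values were seen, fell by 0.58 (SE 0.11, adjusted p = 0.0101), with dim signals of 2.72 to 2.79 in NN-TU and 3.24 to 3.54 in NN-Veh. Abca1, the efflux pump for cholesterol, had 8.50, 8.65, 8.34 and 8.21 in NN-TU and 9.02, 8.95, 8.83 and 8.83 in NN-Veh. It fell by 0.48 (SE 0.10, adjusted p = 0.0172), with -0.33 without NN-TU 21 and 22 (adjusted p = 0.223) and a call lost without NN-Veh 15 or 16 or either of these 2 alone. Abca1 was the 1 gene of 9 of efflux and esterification past the threshold, against 1.06% of all genes falling. At an unadjusted p under 0.05, 4 of the 9 were lower and 1 higher (11.5% and 3.84% of all genes). Without NN-TU 21 and 22, 1 was lower and 1 higher at that p. The sterol exporters Abcg5 and Abcg8 were at -0.43 and -0.19 (adjusted p = 0.124 and 0.583, limma).

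**Figure D3:**
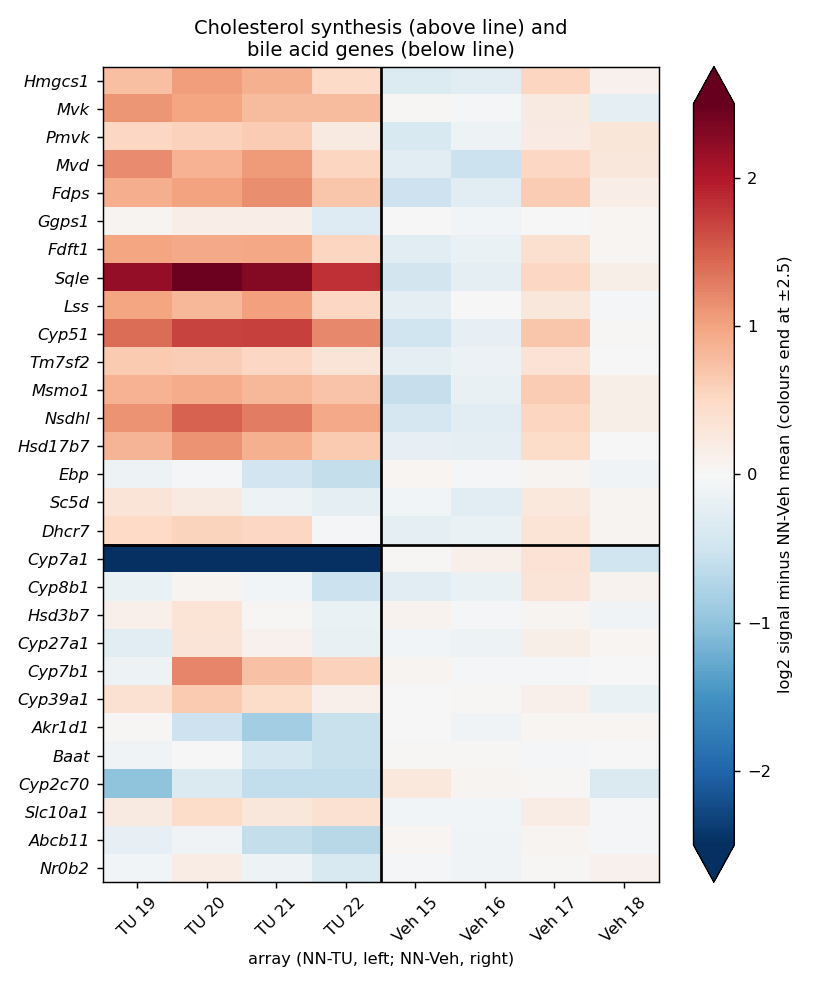
Log2 signal of each array minus the mean of the 4 NN-Veh arrays (colour, red higher and blue lower, ending at 2.5 either way), with NN-TU arrays left and NN-Veh arrays right of the vertical line. The rows above the horizontal line are the 17 measured genes of cholesterol synthesis, 12 of which rose, and the rows below it bile acid genes, with Cyp7a1 past the adjusted threshold.

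In fatty acid synthesis, triglyceride synthesis and lipid droplets 1 gene each of 18, 13 and 18 fell and 0 rose, and the medians lay between -0.08 and -0.03. Of all genes 1.06% fell. At an unadjusted p under 0.05, 2, 3 and 2 were lower, against 11.5% of all genes. In the same order 1, 0 and 0 were higher, against 3.84% of all genes. Scd1, the desaturase that makes oleate, had 11.91, 9.98, 10.82 and 10.57 in NN-TU and 12.07, 11.79, 12.09 and 12.10 in NN-Veh. NN-TU 19 lay within the vehicle range and the other 3 treated livers below it, for a difference of -1.19 (SE 0.24, adjusted p = 0.0148 in limma, 0.06 without NN-TU 22, and 0.205 without NN-TU 21 and 22 together). The pathway's main enzymes Fasn, Acly and Acaca differed by -0.13, -0.18 and -0.17 (adjusted p = 0.857, 0.736 and 0.665). Srebf1, the fall among the regulators above, had 8.30, 7.88, 7.32 and 7.55 in NN-TU and 8.94, 8.47, 8.58 and 8.60 in NN-Veh, and fell by 0.88 (SE 0.15, adjusted p = 0.0051), or 0.55 without NN-TU 21 and 22 with an adjusted p of 0.118. Gpat4, an enzyme of the first step of triglyceride synthesis, had 8.79, 8.55, 8.29 and 8.32 in NN-TU and 9.39, 9.34, 9.14 and 9.12 in NN-Veh, and fell by 0.76 (SE 0.10, adjusted p = 0.00138, limma), with -0.58 without these arrays (adjusted p = 0.0485). Plin4, a coat protein of lipid droplets, had 5.03, 4.96, 5.39 and 5.34 in NN-TU and 6.47, 6.00, 5.79 and 6.45 in NN-Veh, and fell by 1.0 (SE 0.16, adjusted p = 0.00369), with -1.19 without these arrays (adjusted p = 0.0433). In Gpat4 and Plin4 the groups did not overlap.

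Cidea and Cidec, lipid droplet genes of interest to the study, did not pass the test in NN livers. Cidea had 4.14, 4.08, 5.50 and 5.36 in NN-TU and 4.13, 4.24, 4.65 and 4.95 in NN-Veh, a difference of 0.28 with an SE of 0.44 (adjusted p = 0.812, limma). Cidec had 6.10, 5.22, 6.95 and 6.76 in NN-TU and 5.70, 6.68, 6.29 and 7.16 in NN-Veh, a difference of -0.20 with an SE of 0.47 (adjusted p = 0.884). In both genes NN-TU 21 and 22 were above 19 and 20, and without replicates 21 and 22 the differences were -0.38 and -0.80 (adjusted p = 0.843 and 0.661). The study chose 9 genes on these same arrays, so that their direction is not independent evidence, and 1 of them fell and 0 rose. This was Themis, a signalling protein of T cells, with 3.26, 3.88, 3.46 and 3.54 in NN-TU and 4.33, 4.78, 4.39 and 5.11 in NN-Veh (-1.12, SE 0.19, adjusted p = 0.00475). Its difference was -1.08 without NN-TU 21 and 22 (adjusted p = 0.113). The genes under PPARG known from fatty liver were negative in 7 of 7, against 62.7% of all genes, with 0 past the threshold, 3 lower at an unadjusted p under 0.05 (11.5% of all genes), and a median of -0.38. Without NN-TU 21 and 22, 1 of the 7 was positive, 2 were lower at that p and the median was -0.26. Among the 7 genes the fatty acid importer Cd36 had 9.46, 8.60, 9.17 and 9.11 in NN-TU and 9.61, 9.61, 9.67 and 9.93 in NN-Veh (-0.62, adjusted p = 0.0929, limma). Fatty acid oxidation and ketogenesis had 0 of 22 genes past the threshold. At an unadjusted p under 0.05, 3 were higher and 3 lower, against 3.84% and 11.5% of all genes. Of 14 apolipoproteins and partners 1 rose and 0 fell, against 0.292% of all probe sets rising. At an unadjusted p under 0.05, 1 was higher and 0 lower, against 3.84% and 11.5% of all genes. The gene that rose was Apom, the carrier of sphingosine-1-phosphate on HDL, with 7.88, 8.06, 7.44 and 7.49 in NN-TU and 7.03, 7.04, 7.17 and 7.13 in NN-Veh. Its rise of 0.62 (SE 0.15, adjusted p = 0.036) was 0.88 without NN-TU 21 and 22 (adjusted p = 0.0485), and was past the threshold without either of these but not without any other 1 of the 8 arrays (adjusted p up to 0.0917).

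Xenobiotic metabolism held more falls than any other list, 9 of 45 with 0 rises, against 1.06% of all probe sets falling, and the list's median was -0.19. Sult1e1, estrogen sulfotransferase (chr5:87575968-87591611), had 3.70, 3.36, 3.45 and 3.12 in NN-TU and 5.18, 4.75, 5.09 and 6.33 in NN-Veh. The treated livers lay below the array medians and the vehicle livers above them, with a difference of -1.93 (SE 0.25, a 3.82-fold lower signal, adjusted p = 0.000793, limma) and of -1.81 without NN-TU 21 and 22 (adjusted p = 0.0485). Sult1b1 and Sult1d1, of the same family, fell by 0.66 and 0.48 (adjusted p = 0.00344 and 0.0231). Among phase I enzymes Cyp2a5, the mouse coumarin hydroxylase, had 4.84, 3.94, 4.44 and 4.73 in NN-TU and 5.42, 5.80, 5.42 and 5.47 in NN-Veh, and fell by 1.04 (SE 0.20, adjusted p = 0.0103). The carboxylesterases Ces2a and Ces1g and the flavin monooxygenase Fmo5 fell by 0.69, 0.66 and 0.64, and the glutathione transferases Gstm2 and Gsta4 by 0.74 and 0.81. Leaving out 1 array took the call from Gsta4 in 7 of 8 fits (all but that without NN-TU 19, adjusted p up to 0.156), from Sult1d1 in 5 (NN-Veh 15, 16 or 17, NN-TU 21 or 22) and from Ces1g in 4 (NN-Veh 17 or 18, NN-TU 21 or 22). Cyp3a11 and Cyp2b10, the usual targets of PXR and CAR, were at -0.42 and 0.23 (adjusted p = 0.446 and 0.447). Without NN-TU 21 and 22, Ces2a (-0.54, adjusted p = 0.0433) and Sult1e1 were past the threshold, the list's median was -0.09, and 12 genes were lower and 2 higher at an unadjusted p under 0.05. The 9 falls became 6 without NN-Veh 17, NN-TU 21 or NN-TU 22, and 1 in the fit of all 30 arrays. Members of the Cyp2, Sult1 and Gst families are similar in sequence, so that a probe set may also report a relative.

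Genes whose liver level differs between the sexes passed the threshold in single cases. Of 13 female-biased genes 9 had a negative difference (62.7% of all genes). At an unadjusted p under 0.05, 5 were lower and 2 higher (11.5% and 3.84% of all genes). Of 15 male-biased genes 7 were negative, with 2 lower and 3 higher. Without NN-TU 21 and 22, 0 female-biased genes were lower and 2 higher, against 1 and 5 male-biased genes. No gene of either list then passed the adjusted threshold. Cyp2b13, a cytochrome of female liver, had 7.95, 6.55, 6.64 and 7.63 in NN-TU and 6.22, 5.64, 5.31 and 5.86 in NN-Veh, and was the 1 of 13 female-biased genes that rose (1.44, SE 0.32, adjusted p = 0.0256, limma). The call was lost without NN-Veh 16, 17 or 18 or NN-TU 19 or 22 (adjusted p of 0.0508 to 0.102). Of 15 male-biased genes 1 fell, the fatty acid hydroxylase gene Cyp4a12b, by 0.76 (SE 0.11, adjusted p = 0.00229), with 6.41, 6.49, 6.04 and 6.18 in NN-TU and 7.16, 6.84, 7.26 and 6.88 in NN-Veh. Hsd3b5, a male-specific steroid dehydrogenase, was spread widely in both groups, with 5.82, 8.89, 7.40 and 7.45 in NN-TU and 7.44, 3.17, 5.22 and 3.58 in NN-Veh. Its difference of 2.54 had an SE of 0.77 and an adjusted p of 0.103, which was 0.0229 without NN-Veh 15 and 0.0439 without NN-TU 19. Those were the 2 of 19 alternative fits past the threshold for Hsd3b5. Growth hormone signalling had 0 of 11 genes past the threshold. Its feedback inhibitor Socs2 had 4.68, 5.58, 7.44 and 7.46 in NN-TU and 4.53, 5.20, 4.87 and 3.85 in NN-Veh, where replicates 21 and 22 lay far above the vehicle livers (1.68, adjusted p = 0.117, and 0.52 without these arrays). Hsd17b6, which acts on androgens and retinol, had 9.16, 8.39, 8.15 and 8.32 in NN-TU and 9.97, 9.41, 9.34 and 9.72 in NN-Veh, and fell by 1.1 (SE 0.20, adjusted p = 0.00946). Its difference was -0.83 without NN-TU 21 and 22 (adjusted p = 0.205). The steroid hydroxylase gene Cyp17a1 had 10.57, 8.43, 8.41 and 8.53 in NN-TU and 10.14, 9.98, 10.32 and 10.27 in NN-Veh. Replicate 19 was above all vehicle livers and the other 3 treated livers below all of them, and the difference of -1.19 (adjusted p = 0.0996) was -1.72 without replicate 19 (adjusted p = 5.97e-04, limma). Over 19 alternative fits the Cyp17a1 difference lay between -1.72 and -0.68, and 2 of the 19 were past the threshold.

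Enzymes of the urea cycle and amino acid catabolism had negative differences in 21 of 22, against 62.7% of all genes, with 3 falls past the adjusted threshold (1.06% of all genes), 18 at an unadjusted p under 0.05 (11.5% of all genes) and a median of -0.32. The 3 were Cth (cystathionine gamma-lyase), Gpt (alanine aminotransferase) and Aass, of lysine breakdown, which fell by 0.64, 0.58 and 0.53 (adjusted p = 0.0208, 0.0203 and 0.0119, limma). Cth had 10.84, 10.65, 10.08 and 10.29 in NN-TU and 11.17, 10.92, 11.19 and 11.14 in NN-Veh, so that all treated livers were below the vehicle livers and replicates 21 and 22 lowest. All 3 calls were lost without NN-TU 21, Cth and Gpt also without NN-TU 22 or NN-Veh 15, and Cth without NN-Veh 17 or 18 (adjusted p up to 0.0839). Without both arrays the median was -0.11, with 0 genes past the threshold and 4 at an unadjusted p under 0.05. Housekeeping genes had a median of -0.13 with all arrays and -0.02 without replicates 21 and 22, with 5 of 11 lower at an unadjusted p under 0.05, against 0. Subunits of the respiratory chain were negative in 21 of 24, against 62.7% of all genes (median -0.20, and -0.03 without both arrays), with 1 fall past the threshold, against 1.06% of all genes. This was Cox5b, which fell by 0.51 (adjusted p = 0.0396) in this probe set while another was at 0.14, a call lost without any 1 vehicle array, NN-TU 21 or NN-TU 22 (adjusted p up to 0.15).

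In the route from tryptophan to NAD 2 of 13 genes fell, against 1.06% of all genes, with a median of -0.29 (-0.07 without NN-TU 21 and 22). Of the 13, 11 had a negative difference (62.7% of all genes) and 7 were lower at an unadjusted p under 0.05 (11.5% of all genes). In the fit without NN-TU 21 and 22, 3 were lower and 1 higher at that p, and 0 passed the adjusted threshold. Acmsd, which draws the pathway away from NAD, had 7.64, 6.75, 6.25 and 6.13 in NN-TU and 8.48, 7.96, 8.09 and 8.10 in NN-Veh, groups that did not overlap, and fell by 1.47 (SE 0.33, adjusted p = 0.0256, limma). Without replicates 21 and 22 the difference was -0.97 (adjusted p = 0.344), and leaving out either of them or any 1 vehicle array took the call away (adjusted p of 0.0505 to 0.106). Afmid, the formamidase of the first steps, fell by 0.56 (adjusted p = 0.0376), a call lost in 7 of the 8 fits that leave out 1 array, all but that without NN-TU 19 (adjusted p up to 0.142). Upp2, a liver uridine phosphorylase, had 7.47, 6.29, 6.87 and 7.42 in NN-TU and 8.70, 8.89, 8.65 and 8.08 in NN-Veh, and fell by 1.57 (SE 0.26, a 2.97-fold lower signal, adjusted p = 0.00457), with -1.71 without NN-TU 21 and 22 (adjusted p = 0.0675).

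**Figure D4:**
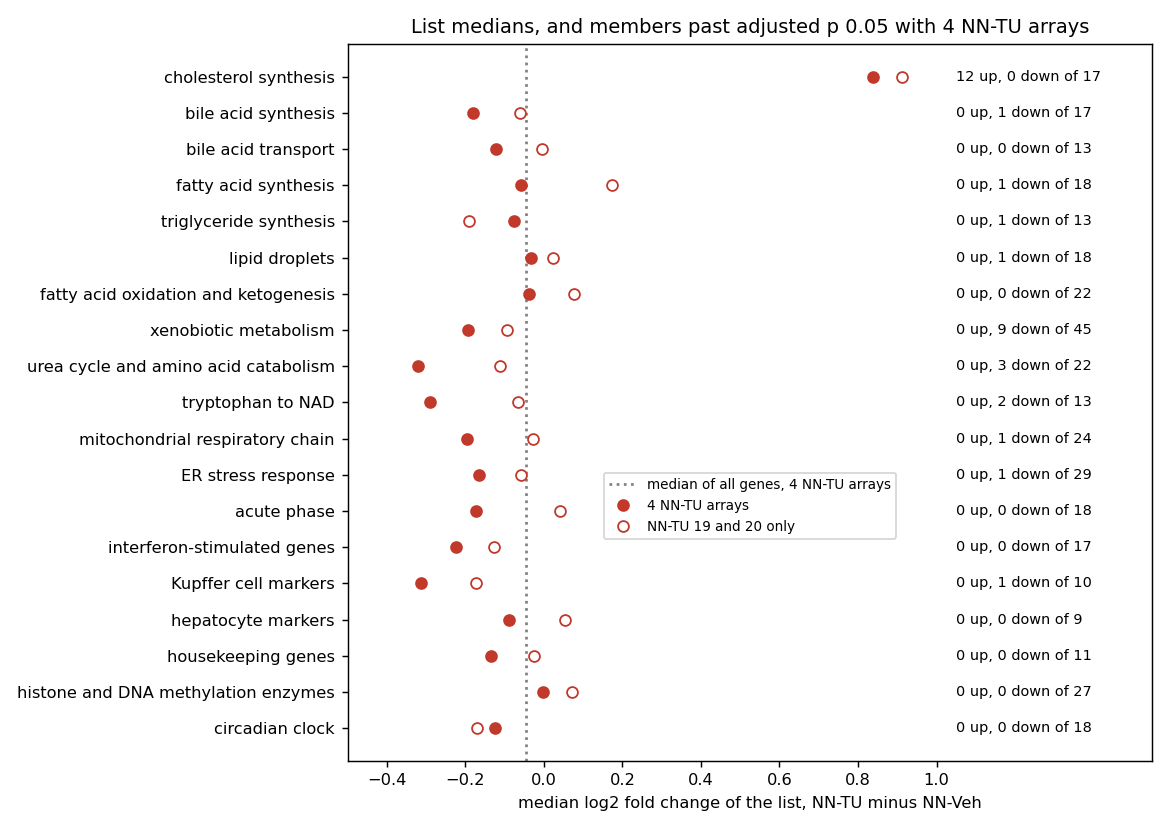
Median log2 fold change of gene lists, NN-TU minus NN-Veh (x axis), with all 4 NN-TU arrays (filled) and with replicates 19 and 20 alone (open), and beside each the number of members past an adjusted p of 0.05 with all 4 arrays. Cholesterol synthesis lies at 0.84 and 0.91, and the urea cycle and amino acid list at -0.32 and -0.11, against -0.05 for all genes (dotted line, 4 arrays).

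The ER stress response had 1 fall and 0 rises among 29 genes, with a median of -0.17 (-0.06 without NN-TU 21 and 22). Of all genes 1.06% fell. Of the 29, 22 had a negative difference (62.7% of all genes). At an unadjusted p under 0.05, 6 were lower (11.5% of all genes) and 0 higher. In the fit without NN-TU 21 and 22, 1 was lower and 2 were higher at that p. Dnajb9, an ER co-chaperone, had 8.37, 8.27, 7.64 and 8.06 in NN-TU and 8.75, 8.37, 8.74 and 8.82 in NN-Veh, and fell by 0.58 (SE 0.14, adjusted p = 0.0451, limma), with -0.35 without replicates 21 and 22 (adjusted p = 0.366). The call was also lost without NN-Veh 15, 17 or 18 or either of these 2 alone (adjusted p up to 0.159). The chaperone BiP (Hspa5) had 9.05, 9.16, 8.80 and 8.70 in NN-TU and 9.31, 9.10, 9.19 and 9.23 in NN-Veh, a difference of -0.28 (adjusted p = 0.23), and of -0.10 without replicates 21 and 22. Ddit3 (CHOP), the factor of the late response, was at -0.01, Atf4 at 0.18 and Xbp1 at 0.17 (adjusted p = 0.985, 0.458 and 0.487). Of the heat shock genes 0 of 10 passed. At an unadjusted p under 0.05, 3 were lower and 1 higher, against 11.5% and 3.84% of all genes.

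Markers of Kupffer cells, the resident macrophages of liver, had negative differences in 10 of 10, against 62.7% of all genes, with 1 fall past the threshold (1.06% of all genes), 6 at an unadjusted p under 0.05 (11.5% of all genes) and a median of -0.31. The macrophage gene Adgre1 (F4/80) had 6.85, 6.64, 6.29 and 6.75 in NN-TU and 7.67, 7.16, 7.21 and 7.29 in NN-Veh, and fell by 0.70 (SE 0.16, adjusted p = 0.0256, limma), with an adjusted p of up to 0.106 when 1 array was left out. Clec4f, the marker most specific to these cells, had 8.35, 8.26, 7.70 and 7.98 in NN-TU and 8.68, 8.24, 8.28 and 8.26 in NN-Veh (-0.29, adjusted p = 0.294). The summed linear signal of the 10 markers was 1971, 1965, 1328 and 1596 in NN-TU 19 to 22 and 1923 to 2772 in NN-Veh. Without NN-TU 21 and 22 the list's median was -0.17, with 0 markers past the threshold. In whole liver, fewer cells of a type and less RNA per cell cannot be told apart. Mpeg1, a pore-forming protein of macrophages, had 8.72, 7.94, 7.58 and 7.27 in NN-TU and 9.09, 8.95, 8.60 and 8.79 in NN-Veh (-0.98, SE 0.22, adjusted p = 0.0258, and -0.52 with an adjusted p of 0.357 without replicates 21 and 22), a call lost in 5 of the 8 fits that leave out 1 array (NN-Veh 15, 16 or 18, NN-TU 21 or 22). Named after their values were seen, the myeloid genes Ms4a6d, Clec4a3, Cd53, Cybb and Laptm5 fell by 0.63, 0.62, 0.60, 0.59 and 0.56. Leaving out 1 array took the call from Cd53 in 7 of 8 fits (all but that without NN-TU 19, adjusted p up to 0.167), from Cybb and Laptm5 in 6 (any vehicle array, NN-TU 21 or 22) and from Clec4a3 in 5 (any vehicle array, NN-TU 21), and from Ms4a6d in 0. Without NN-TU 21 and 22 together 0 of the 5 were past the threshold. The marker lists of recruited monocytes and macrophages, T, B and NK cells, neutrophils, stellate cells, sinusoidal endothelium and bile duct had 0 markers past the threshold. The 8 markers of recruited monocytes and macrophages went both ways, 3 positive and 5 negative. Their median was -0.11, with 1 lower at an unadjusted p under 0.05. With NN-TU 21 and 22 left out 4 were positive and the median was -0.004. All 6 neutrophil markers were dimmer than the array median, and their summed signal was 65.1 to 68.1 in NN-TU and 70.4 to 76.6 in NN-Veh. The part of cell composition and of the arrays that stood apart in these falls was not tested.

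Inflammatory and matrix lists held few changes. Interferon-stimulated genes were negative in 16 of 17, against 62.7% of all genes, with 0 past the threshold and 6 lower at an unadjusted p under 0.05 (11.5% of all genes), and 0 without NN-TU 21 and 22, where the list's median was -0.13. Acute phase proteins (0 of 18 past the threshold) and complement and coagulation factors (0 of 25) had medians of -0.17 and -0.12 with all arrays and 0.04 and 0.05 without these arrays. The collagen genes Col1a1 and Col3a1, of stellate cells, were at -0.40 and -0.43 (adjusted p = 0.109 and 0.112, limma) among 17 matrix genes of which 0 passed. Of 14 cell cycle genes 13 had a negative difference (62.7% of all genes) and 1 fell past the threshold (1.06% of all genes). At an unadjusted p under 0.05, 5 were lower (11.5% of all genes) and 0 higher, and 2 were lower without NN-TU 21 and 22. The gene past the threshold was Ccnd1, the G1 cyclin, which fell by 0.67 (SE 0.13, adjusted p = 0.014), with 6.57, 6.12, 6.27 and 5.96 in NN-TU and 6.70, 6.95, 6.75 and 7.19 in NN-Veh. The call was lost without NN-Veh 18 (adjusted p = 0.0546), without NN-TU 22 (0.0581) and without NN-TU 21 and 22 together (0.187). The clock (0 of 18), gluconeogenesis and insulin signalling (0 of 14), glucocorticoid targets (0 of 13), Nrf2 targets (0 of 10) and enzymes of histone and DNA methylation (0 of 27) had no gene past the adjusted threshold. At an unadjusted p under 0.05 they had 2, 2, 4, 1 and 0 genes lower, against 11.5% of all genes. In the same order 0, 0, 2, 0 and 1 were higher, against 3.84% of all genes.

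Serpina4-ps1, a serpin pseudogene, showed the largest rise among the named genes and a wide spread, with 5.75, 9.29, 8.69 and 9.01 in NN-TU and 4.27, 5.78, 6.09 and 5.04 in NN-Veh. NN-TU 19 lay within the vehicle range and the other 3 treated livers above it (2.89, SE 0.64, adjusted p = 0.0256 in limma). The call was lost without NN-Veh 15 or 18 or NN-TU 20, 21 or 22 (adjusted p up to 0.102). It was also lost without NN-TU 21 and 22 together (2.22, adjusted p = 0.31). Sdr9c7, of the short-chain dehydrogenases, had 7.68, 8.61, 8.15 and 8.04 in NN-TU and 7.22, 6.87, 6.91 and 7.05 in NN-Veh, and rose by 1.11 (SE 0.15, adjusted p = 0.00138), or 1.13 without NN-TU 21 and 22 (adjusted p = 0.0485). Inhba, which encodes the activin A subunit, had 4.75, 5.25, 5.39 and 5.08 in NN-TU and 4.31, 3.78, 4.23 and 4.23 in NN-Veh, and rose by 0.98 (SE 0.15, adjusted p = 0.00255). Its difference was 0.86 without NN-TU 21 and 22 (adjusted p = 0.0829). Gabarap, Atp5d and Rps9, of autophagosomes, ATP synthase and the ribosome, rose by 1.19, 0.91 and 0.88 in 1 probe set each, while the brighter probe set of each gene was at -0.20, -0.02 and -0.02 (adjusted p = 0.267, 0.957 and 0.951), so that no direction can be given for these genes.

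Among the falls, Glt1d1, a glycosyltransferase family gene, was tight in both groups, with 6.69, 6.08, 6.16 and 6.35 in NN-TU and 7.35, 7.51, 7.37 and 7.42 in NN-Veh (-1.1, SE 0.12, adjusted p = 0.000195 in limma, and -1.03 with 0.0269 without NN-TU 21 and 22). Atp6v0d2, a subunit of the proton pump, had 4.07, 3.37, 3.98 and 3.43 in NN-TU and 4.91, 5.45, 4.60 and 5.10 in NN-Veh, and fell by 1.31 (SE 0.18, adjusted p = 0.00163), with -1.30 without these arrays (adjusted p = 0.0485). Slc16a5, of the monocarboxylate carriers, had 6.65, 4.83, 5.13 and 5.87 in NN-TU and 6.86, 6.95, 6.89 and 7.06 in NN-Veh (-1.32, SE 0.26, adjusted p = 0.013, and 0.0607 without NN-TU 21), and a further probe set was at -1.01 (adjusted p = 0.109). The called probe set was at -1.20 without NN-TU 21 and 22 (adjusted p = 0.169). Ntrk2, a neurotrophin receptor, fell by 1.17 (SE 0.19, adjusted p = 0.00386), with dim signals of 2.83 to 3.77 in NN-TU and 3.97 to 4.63 in NN-Veh. Its difference was -0.875 without NN-TU 21 and 22 (adjusted p = 0.142). For cytoplasmic actin, Actg1, 3 probe sets fell, the brightest by 0.95 and the other two, which hold the same values, by 0.77, while 3 dimmer ones were at 0.06, 0.25 and 0.46, so that its direction depends on the probe set. Among genes named after their values were seen, Slc25a30, Onecut1, E2f8 and Noct, a rhythmic gene, changed over 2-fold at an unadjusted p under 0.05 but did not pass the adjusted threshold (1.43, 1.43, 1.41 and -1.31, adjusted p = 0.128, 0.125, 0.071 and 0.053, limma). Without NN-TU 19 they were at 2.03, 1.99, 1.83 and -1.52 (adjusted p = 0.00527, 0.00808, 0.00579 and 0.0211).

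The effect of TUDCA in NN livers was set against that in UN livers by the interaction term, the difference of both effects. No probe set passed (0, 0% of 25341, limma, smallest adjusted p = 0.0509), and 3009 had an unadjusted p under 0.05. A variance trend with robust estimation gave 2, and array weights gave 2. Without NN-TU 19, 104 passed, and without NN-TU 19 and 20 together 1086. There were 3 without NN-Veh 18, 3 without UN-Veh 23, 12 without UN-TU 29 and 10 without UN-TU 30. In UN livers 35 probe sets rose and 68 fell with TUDCA. Of the 342 calls in NN, 22 (5 rises and 17 falls, 6.43% of the NN calls and 21.4% of the UN calls) were also called in UN, each in the same direction.

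Cyp7a1 was at -3.51 in NN and -2.84 in UN, where it averaged 6.31 ± 0.60 in UN-TU and 9.15 ± 0.21 in UN-Veh (SD, n = 4 each, interaction adjusted p = 0.594, limma). Beside their rises in NN given above, Sqle rose by 1.77 in UN, Cyp51 by 1.08, Lss by 1.02 and Mvk by 0.69 (interaction adjusted p = 0.623, 0.624, 0.83 and 0.611). The cholesterol synthesis list had a median of 0.84 in NN and 0.60 in UN, with 12 and 4 rises. For Sqle the effects differed by 0.43 with an SE of 0.31, so that a p above the threshold does not show equal effects. Sult1e1 averaged 3.41 ± 0.24 in NN-TU and 5.34 ± 0.69 in NN-Veh, against 3.53 ± 0.46 in UN-TU and 3.40 ± 0.13 in UN-Veh, so that the NN-Veh mean stood alone above 5. Its interaction of -2.06 (SE 0.35) had an adjusted p of 0.0517 in limma. Acmsd was at -1.47 in NN and 0.82 in UN (interaction adjusted p = 0.0789), and Scd1 at -1.19 and -0.19 (0.249). Themis was at -1.12 in NN and -1.94 in UN (0.237). Cidea and Cidec, at 0.28 and -0.20 in NN, fell by 2.36 and 2.24 in UN, and the difference of effects did not pass (interaction adjusted p = 0.112 and 0.239, limma).

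**Figure D5:**
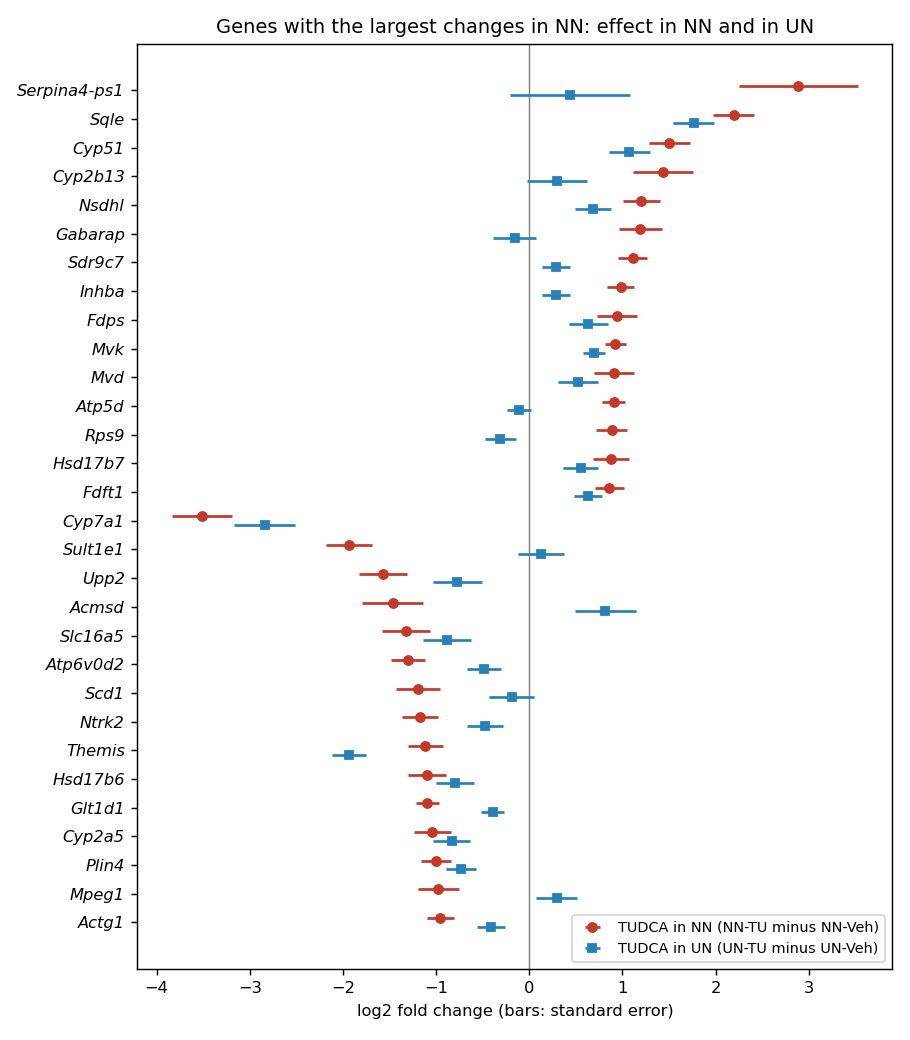
Log2 fold change with TUDCA (x axis, bars give the standard error) of the 15 largest rises and 15 largest falls in NN livers (rows), in NN as red circles (NN-TU minus NN-Veh) and in UN as blue squares (UN-TU minus UN-Veh). The rows were chosen on the NN values, Cyp7a1 lies at -3.51 and -2.84 and Sqle at 2.19 and 1.77, while Sult1e1 lies at -1.93 and 0.13.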

How the data were processed

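Total liver RNA of single animals had been hybridized to Affymetrix MoGene 2.1 ST array strips, and the deposited log2 signals were summarized per probe set by the authors with Affymetrix Expression Console, per the labels. The version, the summarization method and the strip of each array are not given in the sources used here. The values were used as deposited. Of 41345 probe sets, 25341 were named by a gene in the platform annotation and were tested, 23521 with 1 symbol and 1820 with several, and 266 repeat the values of another.

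The 16 arrays of 22 weeks were fitted with limma 3.58.1 (lmFit and eBayes, R 4.3.3), with a mean per group, contrasts for TUDCA in NN, in UN and their difference, and Benjamini-Hochberg adjustment. The script was tested on simulated data. The median residual SD was 0.15 on the log2 scale, and the number of arrays limits the precision. In list counts a gene stands by its brightest probe set with 1 symbol. Of 611 genes in 34 lists 552 were measured. The members and lists were chosen with earlier results of these data known, so that no p is given over a list. Named genes were the 15 largest rises and 15 largest falls past the threshold with 1 symbol, leaving out predicted genes, small RNAs and olfactory receptors, then members of each list and the 9 genes of the study, and those said to be named after their values were seen. Alternatives changed the scaling, the samples fitted, the probe sets, the variance model and the test, and left out arrays.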

Additional observations from a re-analysis of the deposited data

Results flagged for a closer look

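In 90 groups of 4 arrays (45 genes in NN-TU and NN-Veh), 8 held an array further from the other 3 than Dixon's 95% limit, and chance alone marks about 1 group in 20. In NN-TU, replicate 19 had a Serpina4-ps1 signal of 5.75, against 8.69 to 9.29 in the other 3 treated livers, and a Cyp17a1 signal of 10.57, against 8.41 to 8.53. Replicate 22 had an Fdft1 signal of 9.51, against 9.92 to 9.95. In NN-Veh, replicate 16 was apart in the genes Inhba (3.78, against 4.23 to 4.31), Scd1 (11.79, against 12.07 to 12.10) and Cyp2a5 (5.80, against 5.42 to 5.47). Replicate 15 had an Rgs16 signal of 5.71, against 7.0 to 7.24 in the other vehicle livers, and replicate 17 a Mmab signal of 7.19, against 6.95 to 6.98.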

How the results depend on the processing

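The total of 342 calls in NN was 187 with the 8 NN arrays alone, 11 with all 30 arrays and 1 with the methods' ANOVA after adjustment, and lay between 129 and 713 when single arrays were left out. It was 25 without NN-TU 21 and 22 and 2027 without NN-TU 19 and 20, both chosen after seeing the data. The 74 rises were 41, 4 and 0 in the first 3 of these fits, 141 after quantile normalization, 13 and 267 without each pair, and 35 to 118 without single arrays. The 268 falls were 146, 7 and 1, then 12 and 1760, and 94 to 595. At a fold of 2 and an unadjusted limma p under 0.05 the 46 probe sets (22 higher and 24 lower) were 144 (92 and 52) over all probe sets, named or not, and 102 (38 and 64) without NN-TU 19 and 20. Single arrays gave 38 to 66 (19 to 28 higher and 19 to 38 lower), and the ANOVA's p gave 33 (13 higher and 20 lower). The 0 interaction calls were 1 with all 30 arrays, 2 with a variance trend and 2 with array weights, 3 in the probe sets brighter than the median, 1 and 1086 without NN-TU 21 and 22 or 19 and 20, and 0 to 104 without single arrays. The 12 cholesterol synthesis calls were 2 with all 30 arrays, 5 with adjustment over all probe sets, 0 with the ANOVA, 2 and 6 without each pair, and 5 to 12 without single arrays. The 30 calls in the other lists were 3 with all 30 arrays, 0 with the ANOVA, 6 and 131 without each pair, and 17 to 73 without single arrays (73 without NN-TU 19, and 17 without NN-TU 21 or 22).

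Of 67 named genes past the threshold, 13 were still past it without NN-TU 21 and 22. The 1277 alternatives for them left out the other probe sets of Syne1. Of the 1277, 837 kept direction and call, 432 kept direction only, and 8 turned direction, each in another probe set of the gene. The 8 were Actg1 at 0.46, 0.056 and 0.25, Atp5d at -0.016, Cox5b at 0.14, Gabarap at -0.20, Rps9 at -0.017 and Tpt1 at -0.035. For Syne1, 50 of 59 probe sets had a negative difference (median -0.144), and 5 fell and 0 rose. The causes were not tested. No paired analysis was possible because the groups share no replicate numbers.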
